A study of Homo sapiens with 15 samples.

Results

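Tubulins are the building blocks of microtubules, and their mRNA levels were examined here in LNCaP, a human prostate cancer line that responds to androgen. The group was defined by 10 gene symbols (TUBA1A, TUBA1B, TUBA1C, TUBA3D, TUBA3E, TUBA4A, TUBB, TUBB2A, TUBB2B and TUBB3), of which 9 were among the 17272 genes measured, while TUBB3 was not analysed here. All 9 passed the filter on low values, a mean of at least 0.5 CPM (read counts scaled to library size, as deposited). The genes were chosen with their difference between the treatments in these same libraries known, so for each gene this difference is described without a p-value, and the number of genes past a threshold is given as a description only. All cells had been starved of androgen for 2 days in medium with charcoal-stripped serum and then received 1 nM R1881, a synthetic androgen. In 10 libraries the cells also received the solvent DMSO (R1881 + DMSO), and in 5 libraries they received 2 µM enzalutamide, an androgen receptor antagonist (R1881 + enzalutamide). Cells were collected after 22 h, and polyadenylated RNA was sequenced as 50-base single reads.

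Alpha and beta tubulin form a heterodimer that polymerizes into microtubules, which carry intracellular transport and build the mitotic spindle. Each of these proteins is encoded by several genes, called isotypes, whose products differ most in their acidic C-terminal tails, where enzymes remove or add tyrosine and glutamate. Cells also adjust their tubulin mRNA levels to the amount of unpolymerized tubulin, through the recognition of nascent tubulin chains on the ribosome.

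The ends of several coding sequences are shown because they encode the C-terminal tails, although near-identical paralogs hardly differ there (GRCh38, GENCODE v44 canonical transcripts, 5′ to 3′, last codon before the stop codon in capitals).
TUBA1C, chr12:49273180-49273224, plus strand: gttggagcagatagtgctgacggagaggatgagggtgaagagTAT
TUBA3D, chr2:131482801-131482845, plus strand: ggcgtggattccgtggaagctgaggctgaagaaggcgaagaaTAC
TUBA3E, chr2:130191834-130191878, minus strand: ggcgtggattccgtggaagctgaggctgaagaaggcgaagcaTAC
TUBA4A, chr2:219250355-219250399, minus strand: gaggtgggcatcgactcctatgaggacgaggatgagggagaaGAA
TAC and TAT encode tyrosine and GAA encodes glutamate, so that among the alpha isotypes shown TUBA4A was the one whose coding sequence does not end in a tyrosine codon. TUBA3E differed from TUBA3D at 1 of these 45 bases (A41C, counted from the first base shown, TUBA3D first).

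For the beta isotypes the last 60 coding bases are shown, with the base that tells TUBB2B from TUBB2A in capitals.
TUBB, chr6:30724335-30724394, plus strand: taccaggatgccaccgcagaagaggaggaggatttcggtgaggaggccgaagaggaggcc
TUBB2A, chr6:3153866-3153925, minus strand: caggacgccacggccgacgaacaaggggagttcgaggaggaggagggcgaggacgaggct
TUBB2B, chr6:3224754-3224813, minus strand: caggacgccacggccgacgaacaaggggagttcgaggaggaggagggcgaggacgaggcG
The TUBB2A and TUBB2B ends differed at the last base only (T60G), whereas TUBB, the main beta isotype of dividing cells, had a different end. GCT and GCG both encode alanine, so the ends of TUBB2A and TUBB2B encode the same amino acids.

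Over the whole coding sequence TUBA3D and TUBA3E were 98.8% identical, TUBB2A and TUBB2B 98.2%, and TUBA1A and TUBA1B 97.2%. A read of 50 bases can therefore match more than 1 gene. Of the 50-base windows of the canonical transcript, 64.6% occurred exactly elsewhere in the genome or its transcripts for TUBB2A, 62.7% for TUBA1B, 54.9% for TUBB2B, 52.8% for TUBA3D, 49.3% for TUBA1A and 47.4% for TUBA3E. The share was lower for TUBA1C (27.4%), TUBB (23.4%) and TUBA4A (5.55%). The windows of TUBA3D fell in TUBA3E in 668 cases and in TUBA3C, a further paralog, in 221 cases. The sources used here do not state how reads that match several genes were counted, so the split of reads within the TUBA1, TUBA3 and TUBB2 groups is uncertain. A window shared within the TUBA3 group and another shared within the TUBB2 group are shown as examples of reads without a unique origin. The latter also occurs in TUBB2BP1.
TUBA3D, TUBA3E and TUBA3C, position in TUBA3D chr2:131478293-131478342, plus strand: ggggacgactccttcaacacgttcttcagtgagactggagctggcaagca
TUBB2A and TUBB2B, position in TUBB2A chr6:3154542-3154591, minus strand: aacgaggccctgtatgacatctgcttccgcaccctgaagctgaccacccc

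Between 15830745 and 24316740 reads per library were recovered with R1881 + DMSO and between 21188661 and 25416052 with R1881 + enzalutamide. The treatment was checked with 2 androgen-induced genes. KLK3, which encodes prostate-specific antigen, had a mean of 1588 ± 209 CPM in the 10 R1881 + DMSO libraries and 134 ± 7.66 CPM in the 5 R1881 + enzalutamide libraries (± SD throughout), and TMPRSS2 had 850 ± 51.2 and 71.5 ± 2.61 CPM. All 8 markers of luminal prostate cells, KLK3 among them, were measured, and their sum was 7103 to 8274 CPM with R1881 + DMSO and 3601 to 3725 CPM with R1881 + enzalutamide. Of the 3 basal markers only KRT14 had a row, at 0.706 to 1.44 CPM with R1881 + DMSO and 0 to 0.279 CPM with R1881 + enzalutamide. Of the 3 leukocyte markers none had a row, and of the 3 fibroblast markers COL1A1 and COL3A1 did, whose sum was 6.12 to 10.3 CPM with R1881 + DMSO and 19.8 to 25.1 CPM with R1881 + enzalutamide. Of the 2 endothelial markers VWF had a row, at 2.08 to 2.84 and 2.84 to 3.35 CPM. The part of these levels in the tubulin values was not tested. In RNA from whole cultures, fewer cells that express a gene and less RNA per cell cannot be told apart.

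With limma over all genes and a threshold of 0.05 on the adjusted p, all 9 tubulin genes were lower with R1881 + enzalutamide and 0 were higher, where 32.7% of all 17046 genes tested were lower. This count describes how the genes were chosen. For 6 of the 9, the highest R1881 + enzalutamide library was below the lowest R1881 + DMSO library, which was the case for 20.1% of all genes. TUBA3D and TUBA3E were nearly lost, the abundant isotypes TUBA1A, TUBA1B, TUBA1C and TUBB and the scarce TUBB2A and TUBB2B differed moderately, and TUBA4A differed least.

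**Figure D1:**
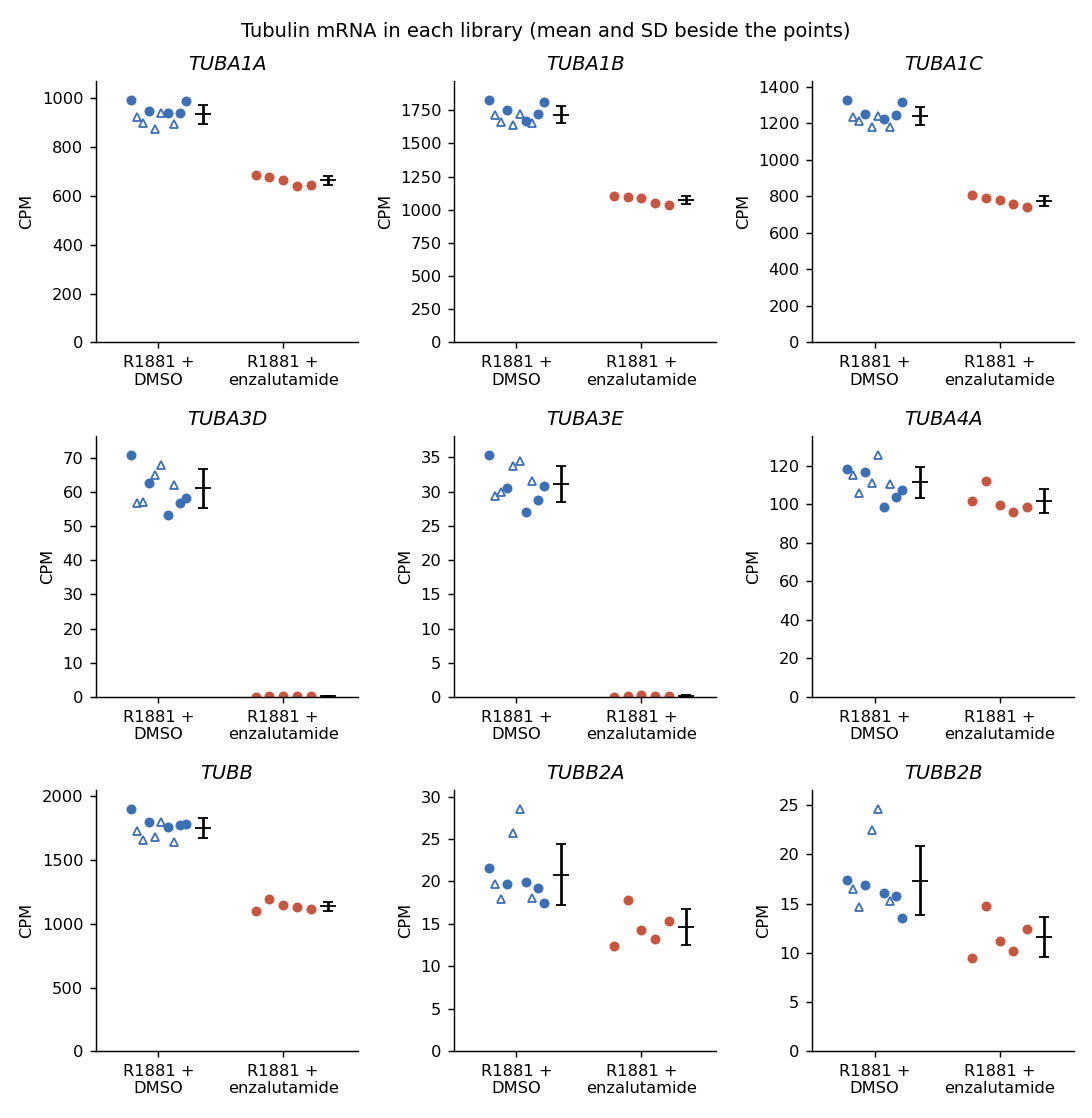
CPM of each tubulin gene (y axis from 0) in the 10 R1881 + DMSO libraries (blue, filled circles for label numbers 51 to 55 and open triangles for 71 to 75) and the 5 R1881 + enzalutamide libraries (red), with the mean and SD beside the points. The treatments overlap for TUBA4A, TUBB2A and TUBB2B only.

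TUBA3D encodes an alpha tubulin best known from testis. Its level in the R1881 + DMSO libraries had a minimum of 53.3, a median of 60.1 and a maximum of 70.8 CPM, from 837 to 1504 reads. In the R1881 + enzalutamide libraries, replicates 1 to 5, it was 0.0466, 0.233, 0.364, 0.225 and 0.314 CPM, from 1, 5, 8, 5 and 8 reads. Each R1881 + enzalutamide library thus held a few reads at most, and the groups were far apart. The summed reads, scaled by library size, were 255-fold higher with R1881 + DMSO (95% exact interval 175 to 387, counting error only). This interval, like that of TUBA3E below, treats reads as independent and takes no account of how the genes were chosen. On the log2(CPM + 0.5) scale, which understates the change of genes with few reads, the difference was -6.40 (SE 0.089).

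TUBA3E, the near-identical paralog of TUBA3D, had a minimum of 26.9, a median of 30.7 and a maximum of 35.4 CPM with R1881 + DMSO, from 434 to 765 reads. With R1881 + enzalutamide it had 0.0466, 0.0930, 0.318, 0.135 and 0.196 CPM, from 1, 2, 7, 3 and 5 reads. The pattern was that of TUBA3D at a lower level, again with no overlap. Of the TUBA3E windows, 668 (45.5%) occur in TUBA3D, so some reads counted here may come from TUBA3D. The values of TUBA3E are therefore not independent of those of TUBA3D. Its summed reads were 195-fold higher with R1881 + DMSO (95% exact interval 124 to 330), and the log2 difference was -5.60 (SE 0.086).

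TUBA3C, which is not one of the 10 symbols but shares sequence with both, had 10.0 to 14.4 CPM with R1881 + DMSO and 0, 2, 2, 1 and 3 reads in the R1881 + enzalutamide libraries (174-fold, 95% exact interval 87.9 to 402). Over the 10 R1881 + DMSO libraries the ratio of TUBA3E to TUBA3D reads was 0.511 ± 0.013 (SD). Its relative spread of 2.46% was smaller than the 4.99% that counting error would give for reads assigned independently. For TUBB2B and TUBB2A the spread was likewise 3.66%, beside 7.40% from counting error. For TUBA1C and TUBA1B it was 0.841% beside 0.840% with R1881 + DMSO and 0.624% beside 0.994% with R1881 + enzalutamide, and for TUBA1A and TUBA1B 1.41% beside 0.917% and 0.942% beside 1.04%.

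**Figure D2:**
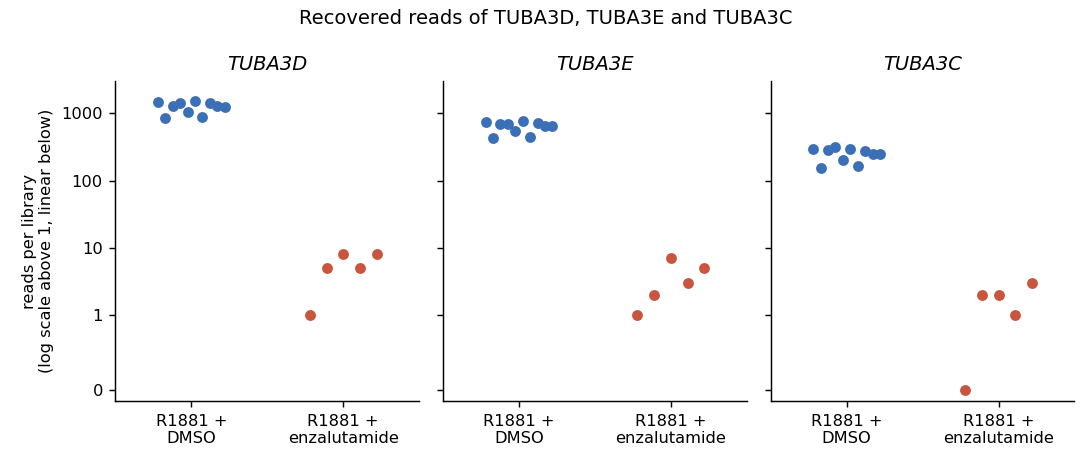
Recovered reads per library (y axis, log scale above 1 and linear below) of TUBA3D, TUBA3E and TUBA3C in the R1881 + DMSO (blue) and R1881 + enzalutamide (red) libraries. The R1881 + enzalutamide libraries hold at most 8 reads of any of the 3 genes, and the R1881 + DMSO libraries at least 153.

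The windows upstream of TUBA3D and TUBA3E are shown because both genes were nearly lost together (RefSeq, GRCh38.p14, the 250 bases before the annotated start, matches to CCAAT on either strand in capitals).
TUBA3D, chr2:131475869-131476118, plus strand: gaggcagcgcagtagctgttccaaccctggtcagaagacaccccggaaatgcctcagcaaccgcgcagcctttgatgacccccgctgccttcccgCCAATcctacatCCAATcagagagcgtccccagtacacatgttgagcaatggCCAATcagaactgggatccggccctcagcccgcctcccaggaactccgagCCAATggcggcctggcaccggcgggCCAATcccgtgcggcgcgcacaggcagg
TUBA3E, chr2:130198440-130198689, minus strand: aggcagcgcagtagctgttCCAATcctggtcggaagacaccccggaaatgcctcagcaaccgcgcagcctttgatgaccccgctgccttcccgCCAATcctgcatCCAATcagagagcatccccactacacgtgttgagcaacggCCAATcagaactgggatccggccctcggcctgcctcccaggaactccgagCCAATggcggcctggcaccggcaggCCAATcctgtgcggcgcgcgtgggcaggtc
The 300-base windows of these genes, which also cover 50 bases after the start, were 92.7% identical. The letters CCAAT occurred 5 times in that of TUBA3D, 6 times in that of TUBA3E and 5 times in that of TUBA3C. At least 5 matches were present in 0.359% of the 35116 promoter windows of the table, and at least 1 match in 34.6%. The threshold of 5 equals the count in TUBA3D and TUBA3C, and the related windows of these paralogs are not separate observations. The part of these matches in the difference between the treatments was not tested. Neither the androgen response element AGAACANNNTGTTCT (0.00285% of windows) nor AGAACA, which is one arm of it (14.8% of windows), matched on either strand in TUBA3D or TUBA3E, which says only that these letters are not in this window.

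TUBA1B, a broadly expressed alpha isotype, was the most abundant tubulin per length. Its level was 1639 to 1825 CPM with R1881 + DMSO (median 1715) and 1106, 1098, 1086, 1053 and 1035 CPM in R1881 + enzalutamide replicates 1 to 5. The log2 difference was -0.67 (SE 0.031), and the median was 36.7% lower. TUBA1C, which lies near TUBA1A and TUBA1B on chromosome 12, ranged from 1182 to 1326 CPM with R1881 + DMSO (median 1238). In the R1881 + enzalutamide libraries TUBA1C had 806, 789.6, 778, 757 and 744 CPM, a log2 difference of -0.68 (SE 0.032). Neither gene had a library of one treatment within the range of the other.

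TUBA1A, the alpha isotype known for its role in neurons, had 876 to 992 CPM with R1881 + DMSO (median 939.7) and 686, 679.9, 665, 642 and 646 CPM with R1881 + enzalutamide. Its log2 difference of -0.49 (SE 0.032) was smaller than those of TUBA1B and TUBA1C, and the groups did not overlap. The ratio of TUBA1A to TUBA1B reads was 0.544 ± 0.0078 with R1881 + DMSO (SD over 10 libraries) and 0.617 ± 0.0058 with R1881 + enzalutamide (SD over 5). The ratio of TUBA1C to TUBA1B reads was 0.724 ± 0.0061 and 0.720 ± 0.0045. TUBA1A thus made up more of this trio with enzalutamide, while the proportion of TUBA1C to TUBA1B moved by less than the SD between the libraries of a treatment.

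TUBB ranged from 1637 to 1895 CPM with R1881 + DMSO (median 1764) and had 1103, 1190.4, 1144, 1133 and 1113 CPM in the R1881 + enzalutamide libraries. The log2 difference was -0.62 (SE 0.034), with no overlap. The annotated pseudogene TUBBP1, in which 422 windows of TUBB recur, had 430.0 ± 22.4 CPM with R1881 + DMSO and 269 ± 9.02 CPM with R1881 + enzalutamide. TUBAP2, which shares 352 windows with TUBA1B, had 438 ± 25.7 and 274 ± 8.74 CPM. Both names were taken from the shared windows and not from the rule for named genes.

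TUBB2A and its neighbour TUBB2B on chromosome 6 are beta isotypes abundant in brain, and both were scarce here. TUBB2A had a minimum of 17.4, a median of 19.8 and a maximum of 28.5 CPM with R1881 + DMSO, and 12.4, 17.8, 14.3, 13.2 and 15.3 CPM with R1881 + enzalutamide. TUBB2B had 13.5, 16.3 and 24.6 CPM (minimum, median and maximum), and 9.50, 14.7, 11.2, 10.2 and 12.4 CPM. For both genes R1881 + DMSO replicates 5 and 6 were the highest, R1881 + enzalutamide replicate 2 was the highest of its group, and this single library fell within the range of R1881 + DMSO. The log2 difference was -0.49 (SE 0.10) for TUBB2A and -0.55 (SE 0.12) for TUBB2B. Without these 3 libraries, which were picked after the values were seen, it was -0.46 and -0.52. TUBB4B, a beta isotype outside the group, was also highest in R1881 + DMSO replicates 5 and 6 (418 and 478 CPM) and, among the R1881 + enzalutamide libraries, in replicate 2 (244 CPM).

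TUBA4A, the alpha isotype encoded without a final tyrosine, had a minimum of 98.6, a median of 111 and a maximum of 126 CPM with R1881 + DMSO. In the R1881 + enzalutamide libraries it had 102, 112, 99.7, 96.0 and 98.7 CPM. Only 1 of these lay below all R1881 + DMSO libraries. The log2 difference was -0.13 (SE 0.05), and its side of the threshold changed with the setting. It did not pass under 8 alternatives, among them TMM scaling (-0.12), edgeR (-0.09), DESeq2 (-0.12), numbers 51 to 55 alone (-0.10) and library totals set to 1000000 (-0.04), nor without R1881 + enzalutamide replicate 3 (-0.12), 4 (-0.11) or 5 (-0.12). TUBA4A also shared few windows with other genes, although its gene bounds overlap those of TUBA4B on the opposite strand, as those of TUBA1A overlap TUBA1C. The library kit keeps the strand, but the sources used here do not state whether the counting used it.

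**Figure D3:**
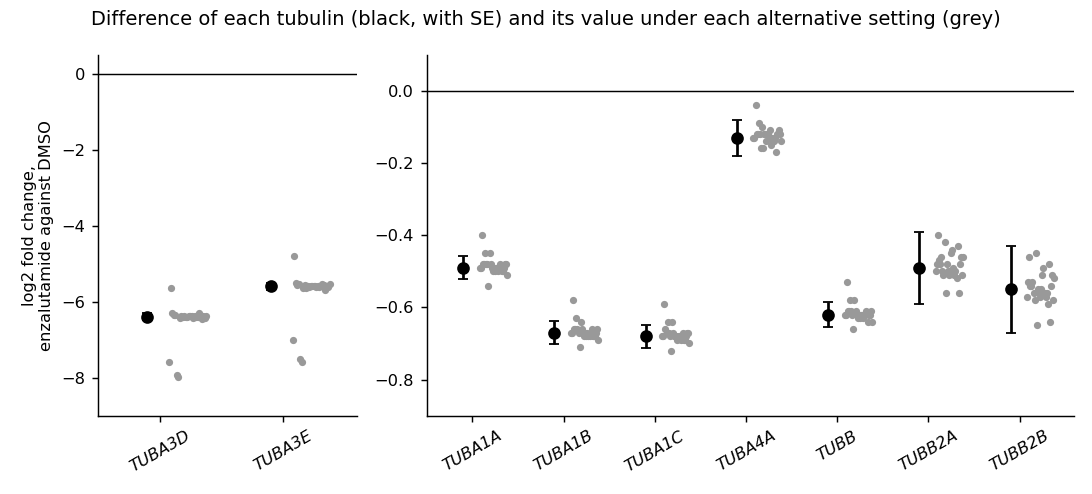
Log2 difference of each tubulin between R1881 + enzalutamide and R1881 + DMSO (y axis, negative values are lower with enzalutamide) with its SE (black), beside its value under each alternative setting (grey). TUBA3D and TUBA3E are in the left panel on a wider scale, where the settings range from -7.98 to -5.65 for TUBA3D, and TUBA4A lies nearest to 0.

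To compare the isotypes with each other, CPM was divided by the length of the canonical transcript. With R1881 + DMSO, TUBA1B had 1055 ± 39.2 CPM per kilobase (SD, n = 10), followed by TUBB with 695 ± 31.0, TUBA1A with 559 ± 22.8 and TUBA1C with 440 ± 17.3. These abundant isotypes were followed at a distance by TUBA4A with 54.4 ± 3.85, TUBA3D with 40.1 ± 3.68, TUBA3E with 20.5 ± 1.76, TUBB2A with 12.9 ± 2.23 and TUBB2B with 9.01 ± 1.81 CPM per kilobase. The ranges of neighbours in this order did not overlap except those of TUBB2A (10.8 to 17.6) and TUBB2B (7.03 to 12.8). With R1881 + enzalutamide, the order of the first 5 was kept, from TUBA1B at 661 ± 18.7 to TUBA4A at 49.6 ± 3.04 CPM per kilobase (SD, n = 5). TUBB2A at 9.04 ± 1.30 and TUBB2B at 6.05 ± 1.07 then stood above TUBA3D at 0.155 ± 0.080 and TUBA3E at 0.104 ± 0.069, whose ranges overlapped.

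Summed over the 8 alpha tubulin genes with a row, TUBA3C and TUBA4B included, the level was 2185 ± 81.3 CPM per kilobase with R1881 + DMSO and 1390.0 ± 41.1 with R1881 + enzalutamide. Over the 7 beta tubulin genes it was 967 ± 52.4 and 617 ± 33.3 CPM per kilobase. The ratio of alpha to beta was 2.26 ± 0.103 (range 2.06 to 2.43) with R1881 + DMSO and 2.26 ± 0.126 (range 2.13 to 2.47) with R1881 + enzalutamide, and the ranges overlapped. Within the alpha group the share of TUBA1A was 25.6% ± 0.324 with R1881 + DMSO and 28.6% ± 0.161 with R1881 + enzalutamide. That of TUBA4A was 2.49% ± 0.168 and 3.57% ± 0.162, and that of TUBA3D 1.84% ± 0.156 and 0.0113% ± 0.0058. TUBB made up 72.0% ± 2.51 and 73.4% ± 1.90 of the beta group. Lengths other than the canonical one would change these shares. The sums, the ratio of alpha to beta and the shares also depend on how reads that match several genes were counted, which is not stated. Shared windows made up 62.7% of TUBA1B and 23.4% of TUBB.

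**Figure D4:**
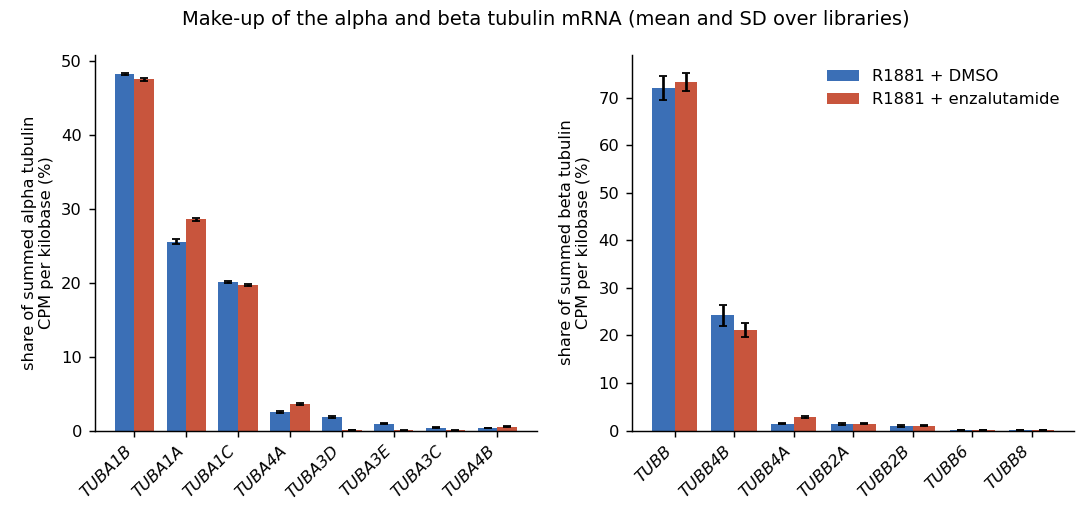
Share of each gene in the summed CPM per kilobase of alpha tubulins (left) and beta tubulins (right) with R1881 + DMSO (blue) and R1881 + enzalutamide (red). Bars are means and error bars are SD over 10 and 5 libraries, and TUBA1B at 48.3% and TUBB at 72.0% lead the R1881 + DMSO bars.

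The labels number the R1881 + DMSO libraries 51 to 55 and 71 to 75, without giving the meaning of the numbers. All R1881 + enzalutamide libraries are numbered 81 to 85, so a difference by treatment and one by number series cannot be told apart. The comparison between the R1881 + DMSO series was not used to choose the genes, and it shows how far the tubulins vary within a treatment. None of the 9 genes differed between the series at an adjusted p under 0.05 from limma (smallest adjusted p = 0.131 from limma, 3 at an unadjusted p under 0.05), where 3.17% of all genes differed, and edgeR and DESeq2 also called 0. TUBA1A came closest, with 962 ± 26.7 CPM in numbers 51 to 55 and 906 ± 24.7 CPM in numbers 71 to 75 (SD, n = 5 each). The TUBA1A ranges, 940.6 to 992 and 876 to 939 CPM, did not overlap (two-sided exact permutation test over 252 regroupings, unadjusted p = 0.00794, the smallest that this design allows), and the log2 difference of -0.09 (SE 0.032) did not pass in limma over all genes (adjusted p = 0.131). The other abundant isotypes were also lower in numbers 71 to 75, with log2 differences of -0.09 for TUBB (two-sided exact permutation test, unadjusted p = 0.0317), -0.07 for TUBA1C (exact p = 0.0397) and -0.06 for TUBA1B (exact p = 0.0476), and none passed in limma over all genes (adjusted p = 0.157, 0.204 and 0.24). The remaining members had log2 differences between 0.04 for TUBA3D and 0.20 for TUBB2B (exact permutation p from 0.302 to 0.706). The 2 high TUBB2B libraries, replicates 5 and 6, belong to numbers 71 to 75.

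Proliferation genes moved with the treatment and also with the number series, and their part in the tubulin values was not tested. MKI67, a marker of cycling cells, had 108 ± 12.5 CPM with R1881 + DMSO and 45 ± 3.02 CPM with R1881 + enzalutamide (log2 difference -1.25, SE 0.072, adjusted p = 3.27e-12 from limma), and TOP2A had 118 ± 14.5 and 63.2 ± 5.97 CPM. All 11 mitotic genes of the list were lower with R1881 + enzalutamide, beside 32.7% of all genes. Their median log2 difference was -0.89, beside -0.01 over all genes, and CCNA2, which encodes cyclin A2, had -1.02. Between the number series, 7 of the 11 were lower in 71 to 75 than in 51 to 55, beside 2.35% of all genes. MKI67 had 97.0 ± 6.83 CPM in 71 to 75 and 119 ± 2.66 CPM in 51 to 55. The count of 7 depended on which libraries were kept. It was 3 without R1881 + DMSO replicate 5 or 7 and 2 without replicate 9 or 10. In these settings 0.199% to 0.329% of all genes were lower. Without 1 of the other R1881 + DMSO libraries the count was 6 to 8.

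Of the other genes of the tubulin pathway, 85 were tested, of which 38 (44.7%) were lower and 24 (28.2%) higher with R1881 + enzalutamide, beside 32.7% and 29.8% of all genes. With library totals set to 1000000 the counts were 25 lower (29.4%) and 29 higher (34.1%), beside 25.2% and 39% of all genes under that scaling. Among the other alpha and beta tubulins, 2 of 6 were lower, TUBA3C (-4.48) and TUBB4B, a broadly expressed beta isotype, at 367 ± 48.2 CPM with R1881 + DMSO and 204 ± 25.5 CPM with R1881 + enzalutamide (log2 difference -0.85, SE 0.081, adjusted p = 1.17e-08 from limma). TUBB4A was higher, at 31.3 ± 3.14 and 40.2 ± 5.20 CPM (0.35, SE 0.077, adjusted p = 0.00046 from limma), as was TUBB8, which has few reads and is named to complete the count. Gamma tubulin nucleates microtubules at the centrosome. Of this and other tubulin families with the ring complex, 8 of 13 genes were lower and 1 was higher, with TUBG1 at -1.06 (148 ± 15.7 and 70.5 ± 7.36 CPM, adjusted p = 2.59e-11 from limma), TUBG2 at -0.55 and TUBE1, which encodes epsilon tubulin, at 0.19.

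Tubulins are folded by prefoldin, the CCT chaperonin and the tubulin cofactors. Of 20 such genes, 12 (60%) were lower and 3 (15%) higher, beside 32.7% and 29.8% of all genes. The median log2 difference of the 20 was -0.13, beside -0.01 over all genes. Counts by list use the deposited scaling only, and library totals set to 1000000 moved the median of all genes to 0.075. TCP1, a chaperonin subunit, had a log2 difference of -0.47 (SE 0.036, adjusted p = 3.68e-10 from limma) and PFDN2, a prefoldin subunit, -0.36, while the cofactors TBCB and TBCD had 0.17 each. In the tubulin mRNA autoregulation list, TTC5, which recognizes nascent tubulin, was lower (33.5 ± 1.48 and 26.9 ± 1.57 CPM, adjusted p = 3.67e-06 from limma). SCAPER, which works with TTC5, was higher (23.7 ± 1.70 and 31.9 ± 1.91 CPM, adjusted p = 9.47e-07 from limma), and CNOT11, the only other gene of this list, did not pass the test (0.01).

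Of 18 enzymes of tubulin modification, 9 (50%) were higher and 5 (27.8%) lower, beside 29.8% and 32.7% of all genes. The tubulin tyrosine ligase TTL, which restores the final tyrosine of alpha tubulin, rose from 45.9 ± 2.82 to 61.4 ± 2.77 CPM (log2 difference 0.42, SE 0.047, adjusted p = 1.14e-07 from limma). AGBL3, a cytosolic carboxypeptidase, rose from 4.64 ± 0.789 to 13.8 ± 1.19 CPM (1.49, SE 0.11, adjusted p = 1.21e-10 from limma). TTLL12 was lower at -0.57 and TTLL4, a glutamylase, at -0.33. Of 25 microtubule-associated genes, 10 (40%) were lower and 8 (32%) higher, near the shares of all genes. MAP2 fell from 72.9 ± 3.74 to 23.4 ± 2.57 CPM (-1.62, SE 0.055, adjusted p = 3.56e-16 from limma) and MAP7 had -0.47, whereas MAPRE2, an end-binding protein, rose from 14.4 ± 0.873 to 43.0 ± 2.42 CPM (1.55, SE 0.052, adjusted p = 2.66e-16 from limma), and MAPT, which encodes tau, had 0.74.

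**Figure D5:**
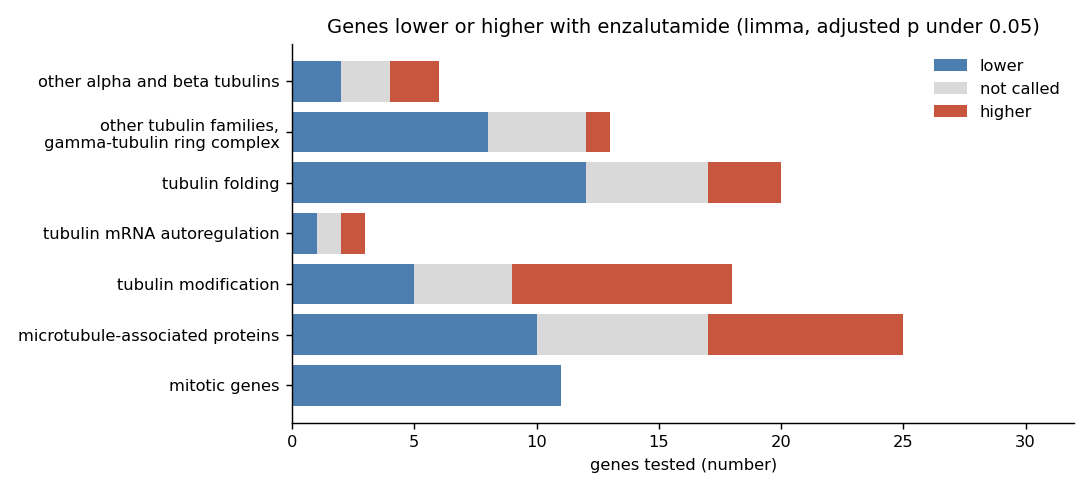
Number of genes of each list (x axis) that were lower (blue), not called (grey) or higher (red) with R1881 + enzalutamide by limma with an adjusted p below 0.05. All 11 mitotic genes are lower, and the tubulin modification list holds more higher (9) than lower (5) genes. Of all genes, 32.7% were lower and 29.8% higher.

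Across the 15 libraries the non-tubulin genes whose log2(CPM + 0.5) was most like that of TUBA3D, of 12138 compared, were SLC43A1 (Pearson r = 0.9988), CHRNA2 (r = 0.9986) and SORD2P (r = 0.9984). These values are set by the step between the treatments, which all libraries share. CHRNA2, which encodes a nicotinic receptor subunit, had 67.3 ± 6.04 CPM with R1881 + DMSO and 0.432 ± 0.183 CPM with R1881 + enzalutamide. It was thus nearly lost too, beside 61.0 ± 5.59 and 0.236 ± 0.121 CPM for TUBA3D. SLC43A1, an amino acid transporter, had 40.4 ± 1.61 and 8.72 ± 0.707 CPM. For TUBA4A the most alike were ATP6AP1 (r = 0.9266), PKM (r = 0.9233) and C9orf69 (r = 0.9217). Each of the latter also had a lower mean with R1881 + enzalutamide, with 222 ± 15.1 and 196 ± 13.7 CPM for ATP6AP1, 1158 ± 43.1 and 1074 ± 41.2 CPM for PKM, the pyruvate kinase gene, and 28.3 ± 3.88 and 22.1 ± 2.65 CPM for C9orf69.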

How the data were processed

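The authors aligned single-end reads to GRCh38 by STAR and assigned them to genes by featureCounts (Subread). The deposited values are a normalized signal, named CPM in their methods. bcl2fastq 2.17 is named in the submitters' processing notes. The gene annotation, the use of strand, the treatment of reads that match several genes and the scaling rule are not stated in the sources used here. The deposited columns summed to 1053406 to 1078567 with R1881 + DMSO and 985580 to 1008992 with R1881 + enzalutamide, so that the scaling differed between the treatments, and all values (100%) were whole multiples of 1 read within 0.01 reads, which gave back the reads. The labels give 10 R1881 + DMSO and 5 R1881 + enzalutamide libraries, whereas the methods, which call them biological replicates, swap these 2 group sizes. The labels were followed.

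limma 3.58.1 (R 4.3.3) was fitted to log2(CPM + 0.5) for the 17046 genes whose mean CPM reached 0.5, with a mean-variance trend and Benjamini-Hochberg adjustment (threshold 0.05). On simulated data the fit was checked for known changes. Alternatives were edgeR 4.0.16 (quasi-likelihood) and DESeq2 1.42.0 on the recovered reads, pseudocounts of 0.1 and 1, no filter, other scalings, a replicate block, each number series alone and each library left out. The replicate block used replicates 1 to 5 of each treatment only. Leaving out 3 libraries together was added after the data were seen. The members and lists were chosen with earlier results of these data known. Named genes are the members, the 2 lowest and 2 highest called genes of each list at 5 CPM or more on average, KLK3, TMPRSS2, MKI67, TOP2A and the 3 genes most like the members with the lowest and the highest log2 difference; other names are marked or were given for a count. Windows of 50 bases were searched in hg38 and GENCODE v44 transcripts, and promoters came from RefSeq (GRCh38.p14). Some sequences are not reported here. The number of libraries limits the precision, and so does counting error for TUBA3D and TUBA3E.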

Additional observations from a re-analysis of the deposited data

Results flagged for a closer look

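In R1881 + enzalutamide replicate 2, TTLL4 had 16.2 CPM, beside 13.7 CPM in the nearest of the other 4 libraries, a gap of 0.726 of the group's range. In the same library ATP6AP1 had 220.5 CPM, beside 194 CPM in the nearest, and C9orf69 had 26.8 CPM, beside 21.7 CPM. These were the 3 values far from their group among 84 groups examined, where chance alone marks about 1 group in 20. None of the tubulin genes had such a value, although replicate 2 was also the highest of its group for TUBA4A, TUBB, TUBB2A and TUBB2B. The part of this library in the likeness of ATP6AP1 and C9orf69 to TUBA4A was not tested.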

How the results depend on the processing

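Under all alternatives the tubulin genes kept a negative difference. Of the 9 genes, 8 or 9 were called lower and 0 higher, where 25.2% to 34.1% of all genes were lower. The genes were chosen with this difference known, so the count is a description only. The gene not called was TUBA4A, with library totals set to 1000000 (log2 difference -0.04), TMM scaling, edgeR, DESeq2, numbers 51 to 55 alone, or without R1881 + enzalutamide replicate 3, 4 or 5 (8 settings). With library totals set to 1000000 the pathway genes were 25 lower and 29 higher, against 38 and 24, while all genes went from 32.7% lower and 29.8% higher to 25.2% and 39%, and the difference was -0.40 for TUBA1A, -0.58 for TUBA1B, -0.59 for TUBA1C and -0.53 for TUBB; this scaling moves the median of all genes from -0.01 to 0.075. The differences of TUBA3D and TUBA3E depended on the pseudocount (-7.60 and -7.01 with 0.1, -5.65 and -4.80 with 1) and were -7.92 and -7.51 in edgeR and -7.98 and -7.60 in DESeq2, as follows from their few reads. Without 1 library at a time, the pathway counts were 35 to 40 lower and 20 to 24 higher. The labels share replicate numbers 1 to 5 between the treatments, but libraries of the same number did not deviate together (correlations of -0.148 to 0.119). These values gave no sign of pairs, but they cannot show how the libraries were prepared. The replicate block was fitted to replicates 1 to 5 of each treatment only. With it 9 members and 39 pathway genes were lower and 23 pathway genes higher, where 30.9% of all genes were lower and 28.1% higher. The same 10 libraries without the block gave 9 members and 38 pathway genes lower and 23 pathway genes higher. Between the number series, 0 members were called under every alternative run, although the calls over all genes moved from 541 to 965 in DESeq2 and to between 55 and 964 without 1 library at a time, by more than 1.5 times without any of R1881 + DMSO replicates 3 to 10. Depth limits the TUBA3D and TUBA3E values, at 1 to 8 reads in a library with enzalutamide.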
